A study of Mus musculus with 8 samples.

Results

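The genes that move a cell from G1 into S phase were followed in mouse oligodendrocyte cells with and without Med23, a subunit of the Mediator complex, which links transcription factors to RNA polymerase II. The set was chosen by name and holds 10 genes of the 24346 listed in the deposited table, namely the D cyclins Ccnd1, Ccnd2 and Ccnd3, the E cyclins Ccne1 and Ccne2, the kinases Cdk2, Cdk4 and Cdk6, the retinoblastoma gene Rb1, and Myc. All 10 reached the mean of 1 FPKM asked of a gene to be tested, where FPKM counts fragments scaled by transcript length and by library size, and 12328 genes did so. The data are RNA-seq of immature oligodendrocytes (iOLs) in 8 libraries, 4 Med23+/+ and 4 Med23-/-. The cells began as primary oligodendrocyte precursor cells (OPCs), which were taken from mouse brain at postnatal day 7 by panning on CD140a, the PDGF receptor alpha, and expanded with the OPC growth factors PDGF-AA, at 10 ng/mL, and NT-3, at 1 ng/mL. All libraries were made after 1 day with 15 nM of the thyroid hormone T3 and 10 ng/mL of the cytokine CNTF, which start differentiation. Med23-/- cells came from Med23 fl/fl;Olig1-Cre mice, in which Cre is active in cells that express Olig1, and Med23+/+ cells from Med23 fl/fl littermates without Cre, so both groups carried the floxed alleles. Neither the labels nor the methods say whether the 4 libraries of a genotype came from separate animals or from pooled ones, so p-values measure the spread between these libraries, which may be technical.

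In G1 phase, mitogens raise the D cyclins, which bind Cdk4 and Cdk6 and phosphorylate the retinoblastoma protein. Phosphorylated Rb releases the E2F factors, which switch on the E cyclins and the genes of DNA synthesis, and cyclin E with Cdk2 then completes the step into S phase. Myc drives growth and ribosome production in dividing cells, and OPCs leave the cell cycle as they turn into oligodendrocytes.

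The D cyclins Ccnd1 and Ccnd2, the kinases Cdk6 and Cdk2 and the retinoblastoma gene Rb1 were higher in Med23-/- than in Med23+/+ iOLs, while Cdk4 and Myc were lower. Ccnd3 and both E cyclins did not pass the test. Of the 10 genes, 5 were higher and 2 were lower with an adjusted p under 0.05 (limma on log2(FPKM + 1), Benjamini-Hochberg over all genes tested), where 15.9% of the 12328 genes tested were higher and 14.1% were lower. A fold change above 2 in addition was met upward by 3 of the 10, Ccnd1, Ccnd2 and Cdk6, against 2.98% of all genes, and downward by 0 of the 10, against 1.75%. Here and below this cut was made on FPKM + 1 and not on the ratio of mean FPKM, unless another pseudocount is named. The libraries of the genotypes did not overlap for 7 of the 10, which are the 7 that passed, where 31.6% of all genes tested had no overlap. The median log2 fold change was 0.37 for the 10 genes and -0.01 for all genes tested.

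**Figure D1:**
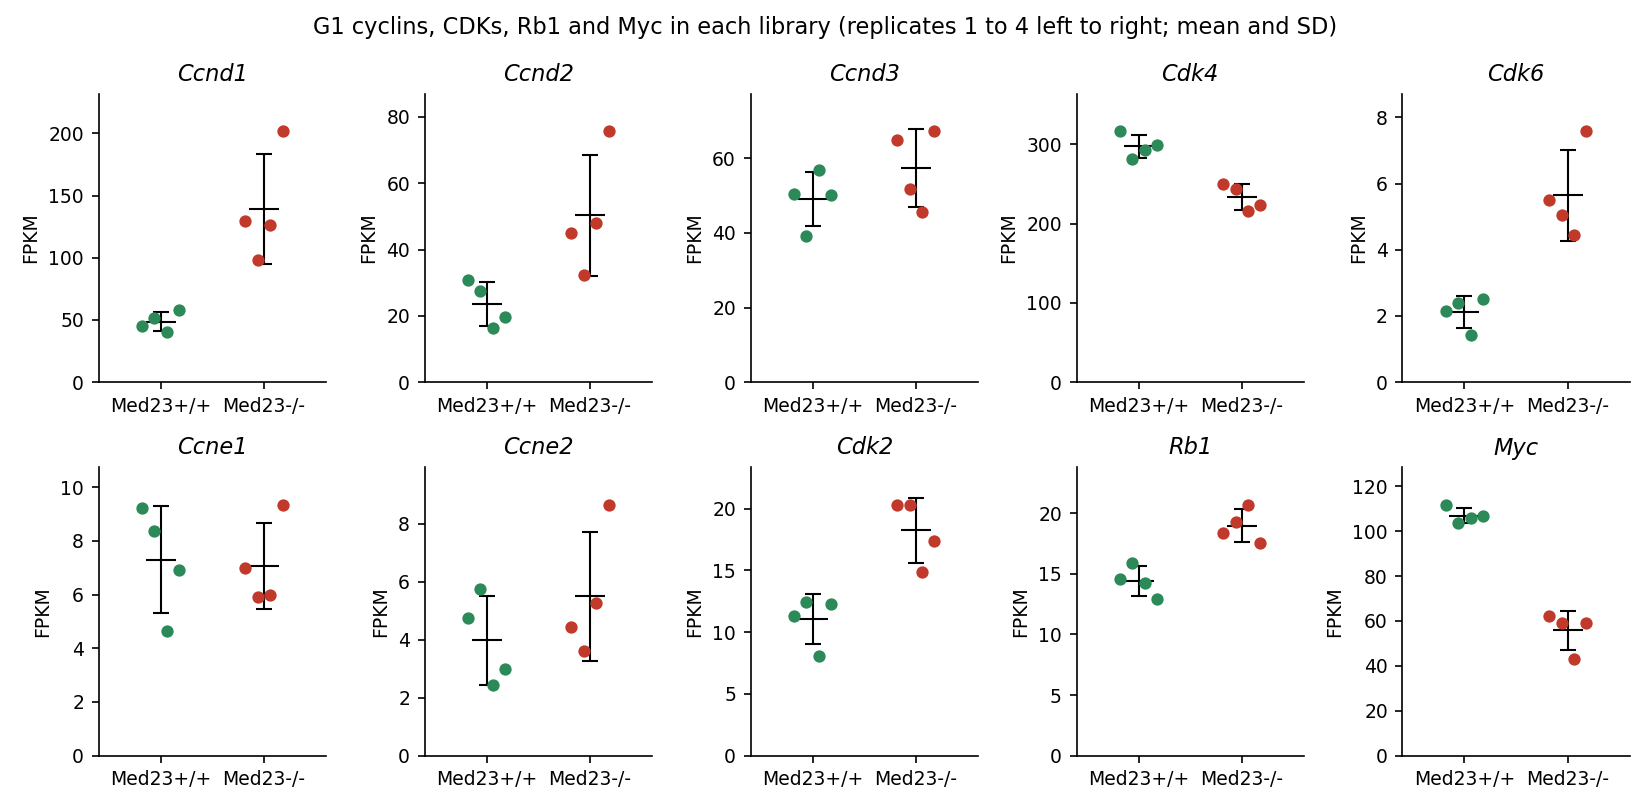
FPKM of the 10 genes in each library, with Med23+/+ in green, Med23-/- in red, replicates 1 to 4 from left to right, a horizontal bar for the mean and whiskers for the SD. The genotypes were apart for Ccnd1, Ccnd2, Cdk4, Cdk6, Cdk2, Rb1 and Myc and overlapped for Ccnd3, Ccne1 and Ccne2.

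**Figure D2:**
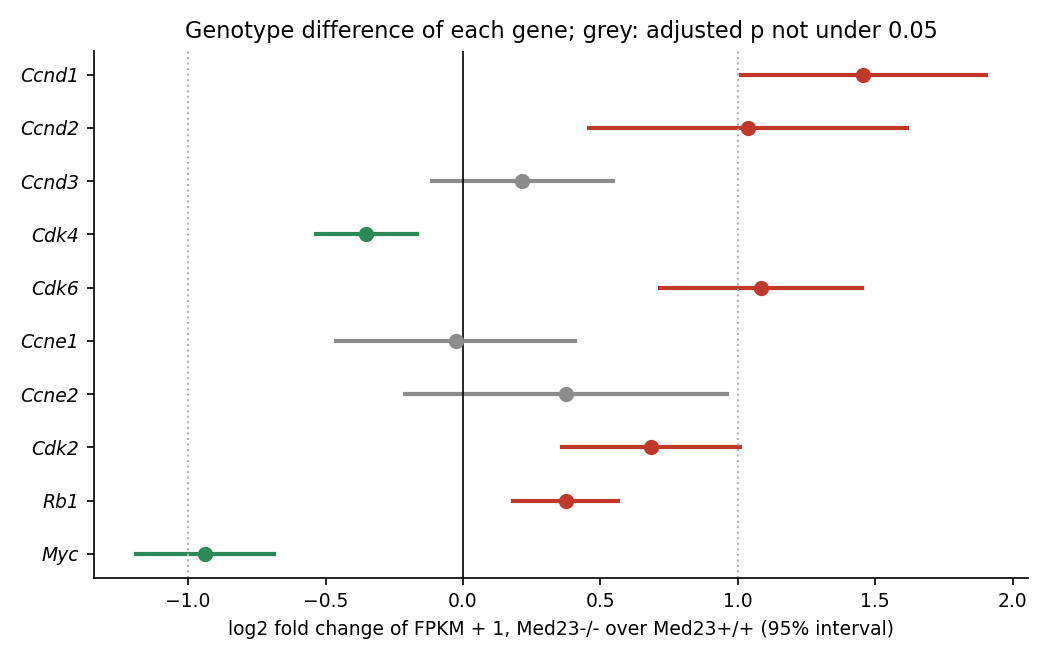
Log2 fold change of FPKM + 1, Med23-/- over Med23+/+, with its 95% interval for each of the 10 genes, in red where higher, green where lower and grey where the adjusted p was not under 0.05. Dotted lines mark a fold change of 2 in each direction, and Ccnd1, at 1.46, had the highest value and Myc, at -0.94, the lowest.

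Med23 itself had 12.7, 12.2, 12.6 and 12.6 FPKM in Med23+/+ replicates 1 to 4 and 8.397, 7.93, 8.49 and 8.21 FPKM in Med23-/- replicates 1 to 4, a log2 fold change of -0.55 ± 0.07 (SE, n = 4 and 4, limma adjusted p = 0.000353). The FPKM is taken over the whole gene, so it does not tell how many reads came from the floxed exons. The depth of the libraries is unknown, since the values are FPKM and not reads, but the spacing of the lowest values puts the worth of 1 read between 0.747 and 1.02 times that in Med23+/+ replicate 1. In bulk RNA, fewer cells of a type and less RNA per cell cannot be told apart. Of 9 oligodendrocyte lineage markers, 5 were lower, among them Mbp and Cnp, and 2, Pdgfra and Cspg4, were higher, with a summed level of 2426 to 2778 FPKM in Med23+/+ and 1904 to 2479.6 FPKM in Med23-/- libraries. All 8 neuron markers were higher in Med23-/- libraries, with a sum of 232 to 267 FPKM in Med23+/+ and 345 to 413 FPKM in Med23-/-, and 3 of 8 astrocyte markers were lower and 1 was higher, with sums of 219 to 275 and 111 to 165 FPKM. Of all genes tested, 15.9% were higher and 14.1% were lower. Of 8 microglia markers 7, and of 8 endothelial markers 6, were under 1 FPKM in every library, and the summed pericyte and fibroblast markers ran from 2.16 to 13.4 and from 4.51 to 21.6 FPKM. Of the 2 endothelial markers tested, Kdr was higher and Vwf was lower. No marker of these lists was at 0 in every library, and the part of the other cell types in the values of the cell cycle genes was not tested.

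Ccnd1 encodes cyclin D1, the D cyclin most directly tied to growth factor signals. It lies on chromosome 7 from 144929931 to 144939925, minus strand (mm10, GENCODE vM21). It had 44.9, 51.7, 40.2 and 58.2 FPKM in Med23+/+ replicates 1 to 4 and 129.7, 98.1, 126 and 202 FPKM in Med23-/- replicates 1 to 4. The lowest Med23-/- library was above the highest Med23+/+ library, and Med23-/- replicate 4 stood highest. The means were 48.7 ± 7.86 and 139 ± 44.2 FPKM (SD, n = 4 each), which is 2.85-fold higher in Med23-/- iOLs. The log2 fold change was 1.46 ± 0.20 (SE), with a 95% interval from 1.01 to 1.90 and a limma adjusted p of 0.000679. Exons of Ccnd1 share 1100 bases with LTO1 on the opposite strand, whose mean was 8.75 FPKM in Med23+/+ and 6.96 in Med23-/- iOLs, and whether reads were counted by strand is not given in the sources used here.

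Ccnd2 encodes cyclin D2, and lies on chromosome 6 from 127125162 to 127152193, minus strand. It had 30.9, 27.5, 16.3 and 19.8 FPKM in Med23+/+ and 45.1, 32.3, 48.1 and 75.7 FPKM in Med23-/- replicates 1 to 4. The ranges did not overlap, although Med23-/- replicate 2 was close to Med23+/+ replicate 1. The means were 23.6 ± 6.74 and 50.3 ± 18.3 FPKM (SD, n = 4 each), 2.13-fold higher in Med23-/- iOLs, with a log2 fold change of 1.04 ± 0.26 (SE), a 95% interval from 0.46 to 1.61 and an adjusted p of 0.0142. Without Med23+/+ replicate 3 the log2 fold change was 0.88, without Med23+/+ replicate 4 it was 0.97 and without Med23-/- replicate 4 it was 0.82, all under a fold change of 2, while the adjusted p was at most 0.0398 whichever library was left out. Its exons share 372 bases with the antisense gene Gm43126, which has no value here, and 368 with the antisense gene 9330179D12Rik, at 0.229 and 0.221 FPKM.

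Ccnd3, which encodes cyclin D3, lies on chromosome 17 from 47505051 to 47599691, plus strand. Its level was 50.3, 39.2, 56.8 and 50.1 FPKM in Med23+/+ and 65.0, 51.7, 45.7 and 67.3 FPKM in Med23-/- replicates 1 to 4. The genotypes overlapped, with 2 Med23-/- libraries above the highest Med23+/+ library. The means were 49.1 ± 7.32 and 57.4 ± 10.4 FPKM (SD, n = 4 each). For Ccnd3 the log2 fold change was 0.22 ± 0.15 (SE), with a 95% interval from -0.11 to 0.54 and an adjusted p of 0.302, so a rise of up to 0.54 lies within its interval. Ccnd3 shares 361 exonic bases with Bysl on the opposite strand, whose mean went from 20.5 to 15.4 FPKM.

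Per unit of length, the D cyclin transcripts summed to 126, 118, 113 and 128 FPKM in Med23+/+ replicates 1 to 4 and to 239.8, 182, 220.1 and 345 FPKM in Med23-/- replicates 1 to 4. The sum was 2.03-fold higher in Med23-/- iOLs and the ranges of the genotypes did not overlap. Ccnd1 made up 35.6, 43.7, 35.5 and 45.4% of the sum in Med23+/+ and 54.1, 53.9, 57.4 and 58.5% in Med23-/- replicates 1 to 4, again without overlap. The share of Ccnd3 was 33.1 to 50.2% in Med23+/+ and 19.5 to 28.4% in Med23-/- libraries, and that of Ccnd2 was 19.4% ± 5.21 and 20.1% ± 2.15 (SD, n = 4 each), with overlapping ranges. In Med23+/+ iOLs Ccnd3 and Ccnd1 had overlapping levels, whereas in Med23-/- iOLs every library had more Ccnd1 than any had Ccnd3. The log2 ratio of Ccnd1 to Ccnd2 on the FPKM + 1 scale was 1.04 ± 0.43 in Med23+/+ and 1.46 ± 0.09 in Med23-/- libraries, a difference of 0.42 (two-sided exact permutation test, p = 0.114, adjusted p = 0.114 over the 3 gene ratios compared), so an unequal rise of the 2 cyclins was not shown.

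**Figure D3:**
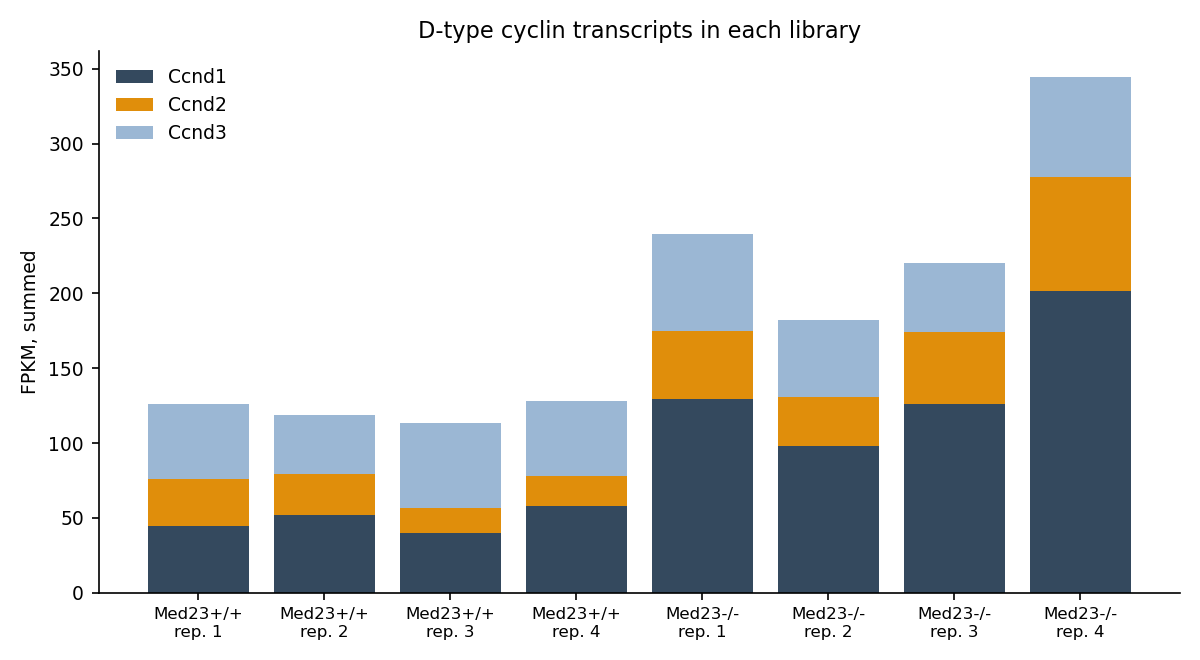
Summed FPKM of the D cyclins in each library, stacked as Ccnd1, Ccnd2 and Ccnd3 from the bottom. The stacks were 113 to 128 FPKM high in Med23+/+ and 182 to 345 FPKM high in Med23-/- libraries, and the Ccnd1 segment grew from a mean of 40.04% to a mean of 56.0% of the stack.

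Cdk4 and Cdk6 encode the kinases that the D cyclins activate, and they moved in opposite directions. Cdk4 lies on chromosome 10 from 127063534 to 127067920, plus strand, and was the most abundant of the 10 genes in both genotypes. It had 316, 282, 292 and 300 FPKM in Med23+/+ and 249.6, 244, 215 and 224 FPKM in Med23-/- replicates 1 to 4. All Med23-/- libraries were below all Med23+/+ libraries, and the mean in Med23-/- iOLs was 0.783 times that in Med23+/+ iOLs. Its log2 fold change was -0.35 ± 0.08 (SE), with a 95% interval from -0.54 to -0.17 and an adjusted p of 0.0105. The 641 bases of Cdk4 that overlap Tspan31 on the opposite strand are exonic in both genes, and the mean of Tspan31 went from 57.2 to 45.1 FPKM.

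Cdk6 lies on chromosome 5 from 3341485 to 3531008, plus strand. It had 2.14, 2.39, 1.44 and 2.51 FPKM in Med23+/+ and 5.49, 5.05, 4.45 and 7.58 FPKM in Med23-/- replicates 1 to 4. The genotypes did not overlap and the mean was 2.66-fold higher in Med23-/- iOLs. On the log2(FPKM + 1) scale, which shrinks the change of a low gene, the log2 fold change was 1.08 ± 0.16 (SE), with a 95% interval from 0.72 to 1.45 and an adjusted p of 0.00119. It was 0.97 without Med23+/+ replicate 3, 0.95 without Med23-/- replicate 4, 0.94 with quantile normalization and 0.99 with array weights, all under a fold change of 2. Cdk6 shares 368 exonic bases with the antisense gene Gm17590, which has no value here. Cdk6 remained a small part of the pair, at 0.490 to 0.840% of the summed Cdk4 and Cdk6 FPKM in Med23+/+ and 2.03 to 3.28% in Med23-/- libraries. The sum of both went from 299.6 ± 14.6 FPKM in controls to 239 ± 16.3 FPKM (SD, n = 4 each), and nearly all of it was Cdk4. The Med23-/- libraries thus had more summed D cyclin transcript and less summed Cdk4 and Cdk6 transcript, although Cdk6 itself was higher. The log2 ratio of Cdk4 to Cdk6 was 6.59 ± 0.24 in Med23+/+ and 5.16 ± 0.30 in Med23-/- libraries, a difference of -1.44 without overlap (two-sided exact permutation test, p = 0.0286, the smallest that 4 against 4 libraries allow, adjusted p = 0.0857 over the 3 ratios).

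The promoters of the kinases are shown because these partners of the cyclins moved in different directions. Each is the 250 bases before a RefSeq start on GRCm38.p6, given 5′ to 3′ on the gene's strand. Capitals mark GGGCGG, the GC box bound by Sp1 and related factors, or CCGCCC, which is the same box read on the other strand. Capitals also mark CACGTG, the E-box bound by Myc with Max, which reads the same on both strands. The Cdk4 window is chr10:127063285-127063534 (plus strand), the Cdk6 window is chr5:3343643-3343892 (plus strand) and the Cdk2 window is chr10:128705052-128705301 (minus strand). Unlike the Cdk4 and Cdk2 windows, the Cdk6 window lies inside the GENCODE span of its gene, which starts at 3341485, so it is not the sequence before that start.
Cdk4: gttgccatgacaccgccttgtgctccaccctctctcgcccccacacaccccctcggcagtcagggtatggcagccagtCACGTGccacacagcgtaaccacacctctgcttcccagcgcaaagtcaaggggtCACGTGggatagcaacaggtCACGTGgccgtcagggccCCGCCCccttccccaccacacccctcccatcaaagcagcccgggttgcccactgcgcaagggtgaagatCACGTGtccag
Cdk6: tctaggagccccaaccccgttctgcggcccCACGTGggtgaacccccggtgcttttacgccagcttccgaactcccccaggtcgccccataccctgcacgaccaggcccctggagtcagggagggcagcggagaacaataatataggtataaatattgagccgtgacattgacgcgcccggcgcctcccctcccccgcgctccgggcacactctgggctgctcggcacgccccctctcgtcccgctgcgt
Cdk2: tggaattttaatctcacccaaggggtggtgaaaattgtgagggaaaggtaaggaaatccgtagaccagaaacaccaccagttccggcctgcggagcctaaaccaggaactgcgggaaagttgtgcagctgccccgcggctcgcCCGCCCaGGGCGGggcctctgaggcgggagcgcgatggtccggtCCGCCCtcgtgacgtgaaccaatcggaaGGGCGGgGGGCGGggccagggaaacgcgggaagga

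The Cdk4 window held 4 copies of CACGTG and 1 of GGGCGG, the Cdk6 window 1 of CACGTG and 0 of GGGCGG, and the Cdk2 window 0 of CACGTG and 5 of GGGCGG. The E-box CACGTG was in 6.02% of the 32851 promoters searched in the same way and GGGCGG in 32.7%, while at least 4 copies of CACGTG were in 7 promoters (0.0213%) and at least 5 of GGGCGG in 1.93%. The E2F site TTTCCCGC occurred 1 time in the Cdk2 window and 0 times in the Cdk4 and Cdk6 windows, and was in 0.895% of all promoters, while TTTGGCGC, in 0.417% of all, was in none of the 3 windows. The matches do not overlap each other. Of the 10 genes, 5 had a promoter in the table, the kinases together with Ccne1, whose window held 4 copies of GGGCGG, and Ccnd3, whose windows at 2 starts held 2 copies and 1 copy. The Ccnd3 window with 1 copy, chr17:47593217-47593466, also lies inside the GENCODE span of its gene, and the Ccne1 window overlaps that of Ccne1 in part. The cuts of at least 4 and at least 5 copies were set at the counts seen for Cdk4 and Cdk2, so those shares carry no test. These are matches of letters and not measured binding.

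The E cyclins, which activate Cdk2 at the border of S phase, overlapped between the genotypes. Ccne1, on chromosome 7 from 38097984 to 38107534, minus strand, had 9.23, 8.36, 4.66 and 6.92 FPKM in Med23+/+ and 6.99, 5.93, 5.97 and 9.35 FPKM in Med23-/- replicates 1 to 4. The lowest library was Med23+/+ replicate 3 and the highest was Med23-/- replicate 4. The means were 7.29 ± 1.996 and 7.06 ± 1.605 FPKM (SD, n = 4 each). Ccne1 had a log2 fold change of -0.03 ± 0.19 (SE), a 95% interval from -0.46 to 0.41 and an adjusted p of 0.938. Its sign turned with single libraries, from -0.20 to 0.09 when each was left out in turn.

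Ccne2, on chromosome 4 from 11191351 to 11204779, plus strand, had 4.74, 5.76, 2.45 and 3.002 FPKM in Med23+/+ and 4.43, 3.61, 5.28 and 8.67 FPKM in Med23-/- replicates 1 to 4. Med23-/- replicate 4 lay above all others, and the other Med23-/- libraries lay within the Med23+/+ range. The means were 3.99 ± 1.53 and 5.50 ± 2.22 FPKM (SD, n = 4 each). Ccne2 had a log2 fold change of 0.38 ± 0.26 (SE), a 95% interval from -0.21 to 0.96 and an adjusted p of 0.316. Ccne2 shares 609 exonic bases with Ints8 on the opposite strand, whose mean of 20.6 FPKM in controls and 17.3 FPKM in mutants is above its own. Ccne1 was 65.1% ± 4.38 of the summed E cyclin FPKM in Med23+/+ and 57.1% ± 5.33 in Med23-/- libraries (SD, n = 4 each), with overlap. The log2 ratio of Ccne1 to Ccne2 was lower by 0.40 in Med23-/- libraries, a difference of -0.40 (exact permutation test, two-sided, p = 0.0857, adjusted p = 0.114 over the 3 ratios), which did not pass.

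Cdk2, the kinase partner of cyclin E, lies on chromosome 10 from 128697939 to 128705031, minus strand. It had 11.3, 12.4, 8.09 and 12.3 FPKM in Med23+/+ and 20.3, 20.3, 14.9 and 17.4 FPKM in Med23-/- replicates 1 to 4. All Med23-/- libraries were above all Med23+/+ libraries, and unlike the cyclins Cdk2 was not highest in Med23-/- replicate 4. The means were 11.03 ± 2.02 and 18.2 ± 2.63 FPKM (SD, n = 4 each), 1.65-fold higher in Med23-/- iOLs. Its log2 fold change was 0.68 ± 0.14 (SE), with a 95% interval from 0.36 to 1.01 and an adjusted p of 0.00656.

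Rb1 encodes the retinoblastoma protein, which holds E2F factors silent until it is phosphorylated. It lies on chromosome 14 from 73183673 to 73325822, minus strand, and had 14.6, 15.9, 14.3 and 12.9 FPKM in Med23+/+ and 18.3, 19.3, 20.7 and 17.5 FPKM in Med23-/- replicates 1 to 4. The genotypes did not overlap, the libraries of each lay close together, and Med23-/- replicate 4, highest for 6 of the 10 genes, was the lowest of its genotype here. The mean was 1.32-fold higher in Med23-/- iOLs, with a log2 fold change of 0.37 ± 0.09 (SE), a 95% interval from 0.18 to 0.56 and an adjusted p of 0.00923. On the opposite strand it shares 488 exonic bases with Rcbtb2, which went from 10.2 to 12.7 FPKM, and 408 with Lpar6, which went from 2.70 to 5.11 FPKM. Of its relatives, Rbl1 (p107) rose from 5.85 ± 1.67 to 10.2 ± 3.03 FPKM (log2 fold change 0.71, adjusted p = 0.0331), a call lost without Med23+/+ replicate 3, where it was 0.53, and also without Med23+/+ replicate 4 or any of Med23-/- replicates 1, 3 and 4, with quantile normalization, and when all genes above 0 in at least 1 library were tested. Rbl2 (p130), the family member of resting cells, was at 13.1 ± 0.727 and 13.9 ± 0.736 FPKM (log2 fold change 0.09, adjusted p = 0.426).

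Myc lies on chromosome 15 from 61985391 to 61990374, plus strand. It had 112, 104, 106 and 107 FPKM in Med23+/+ and 62.1, 59.1, 43.2 and 58.9 FPKM in Med23-/- replicates 1 to 4. The Med23+/+ libraries agreed closely, all Med23-/- libraries were below them, and Med23-/- replicate 3 was the lowest. The means were 107 ± 3.45 and 55.8 ± 8.59 FPKM (SD, n = 4 each), so the level in Med23-/- iOLs was 0.522 times that in Med23+/+ iOLs. The log2 fold change was -0.94 ± 0.11 (SE), with a 95% interval from -1.19 to -0.69 and an adjusted p of 0.000309, the lowest adjusted p of the 10 genes. Its paralog Mycn, known from proliferating neural progenitors, went the other way, from 4.29, 2.22, 1.76 and 2.33 FPKM in Med23+/+ to 9.94, 8.61, 7.23 and 8.43 FPKM in Med23-/- replicates 1 to 4 (log2 fold change 1.43 ± 0.19, adjusted p = 0.000534). Mycn made up 2.39% ± 0.901 of the summed Myc and Mycn FPKM in the control and 13.3% ± 0.874 in the mutant libraries (SD, n = 4 each). The sum of both was still lower, at 64.4 ± 9.59 against 109.6 ± 4.50 FPKM.

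Ordered by FPKM, which is per length, the Med23+/+ iOLs had Cdk4 first, then Myc, Ccnd3, Ccnd1, Ccnd2, Rb1, Cdk2, Ccne1, Ccne2 and Cdk6. Neighbours whose library ranges overlapped in this order were Ccnd3 with Ccnd1, Cdk2 with Ccne1, Ccne1 with Ccne2 and Ccne2 with Cdk6. In Med23-/- iOLs the order was Cdk4, Ccnd1, Ccnd3, Myc, Ccnd2, Rb1, Cdk2, Ccne1, Cdk6 and Ccne2. Here Cdk4 and Ccnd1 stood apart from their next neighbours, and so did Ccnd2 from Rb1 and Cdk2 from Ccne1, while the other neighbours overlapped. Ccnd1 thus stood above Myc in every Med23-/- library and below it in every Med23+/+ library.

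The libraries within a genotype moved several of the 10 genes at the same time. Med23-/- replicate 4 had the highest level of its genotype for 6 of them, Ccnd1, Ccnd2, Ccnd3, Ccne1, Ccne2 and Cdk6, and Med23+/+ replicate 3 the lowest of its genotype for 6, Ccnd1, Ccnd2, Ccne1, Ccne2, Cdk2 and Cdk6. With either of these libraries left out, Ccnd1 was the only one of the 10 genes above a fold change of 2 on the FPKM + 1 scale. This scale shrinks the change of Cdk6, which is low. All 7 genes still passed the adjusted p. The same libraries were at the ends for genes of S phase and mitosis, as given beside those lists.

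The genes around this machinery were grouped in 10 lists of 133 genes, with the 10 genes described so far left out. Of these 133 genes, 58 were higher and 26 were lower with an adjusted p under 0.05, against the 15.9% and 14.1% of all genes tested, and 49 did not pass. The counts of each list are descriptions of lists chosen with earlier results of these data known.

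Among the 10 E2F and DP factors, which Rb and its relatives bind, 3 (30%) were higher and 2 (20%) were lower, against 15.9% and 14.1% of all genes tested. Without Med23+/+ replicate 4, 0 of them were lower. E2f7, a repressor made during S phase, had the highest change, from 2.20 ± 0.548 to 5.30 ± 1.88 FPKM (log2 fold change 0.95, adjusted p = 0.0073), and E2f5, a partner of p130, the lowest, from 11.5 ± 0.741 to 9.10 ± 0.682 FPKM (log2 fold change -0.30, adjusted p = 0.02), a call lost without Med23+/+ replicate 4 or Med23-/- replicate 1. Of 7 CDK inhibitors, 3 (42.9%) were higher and 0 were lower, against the same shares of all genes. Cdkn1a, which encodes p21, had 13.8, 14.6, 6.15 and 9.12 FPKM in Med23+/+ and 47.5, 40.2, 35.4 and 51.7 FPKM in Med23-/- replicates 1 to 4. The genotypes were far apart, with a 4.003-fold higher mean in Med23-/- iOLs and a log2 fold change of 1.96 ± 0.23 (SE, adjusted p = 0.000315). The inhibitor of lowest change was Cdkn1c (p57), at 14.3 ± 2.01 and 11.4 ± 4.91 FPKM with overlapping libraries (adjusted p = 0.284).

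Of 8 genes that switch CDKs on or off through phosphorylation or its removal, 3 (37.5%) were higher and 0 were lower, against 15.9% and 14.1% of all genes tested. The highest change was that of Wee1, an inhibitory kinase of Cdk1 and Cdk2, from 4.59 ± 1.45 to 9.59 ± 1.90 FPKM (log2 fold change 0.95, adjusted p = 0.0067). The lowest was that of Cdk7, the CDK-activating kinase, at 12.8 ± 0.718 and 10.8 ± 0.904 FPKM (log2 fold change -0.23, adjusted p = 0.0631). Of 12 genes for the turnover of cyclins and Myc, 2 were higher and 2 were lower, close to the shares of all genes. Fbxw7, the ubiquitin ligase subunit for cyclin E and Myc, went from 9.63 ± 1.40 to 14.9 ± 3.70 FPKM (log2 fold change 0.56, adjusted p = 0.0319), and Fbxo31, a ligase subunit for cyclin D1, from 20.2 ± 2.22 to 16.2 ± 1.79 FPKM (log2 fold change -0.31, adjusted p = 0.0483). The call of Fbxw7 was lost without Med23+/+ replicate 1, 2 or 4 or Med23-/- replicate 3 or 4, and that of Fbxo31 without Med23+/+ replicate 1, 3 or 4 or Med23-/- replicate 1, 3 or 4. In other settings the call of Fbxo31 was lost with the replicate block, quantile normalization, no trend, array weights or the covariate of replicates 1 and 2 against 3 and 4, and both calls were lost when all genes above 0 in at least 1 library were tested.

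Of the 12 genes of the Myc and Max network, 4 (33.3%) were lower and 2 (16.7%), Mycn and Mxd3, were higher, against 14.1% and 15.9% of all genes tested, so the higher share was near the background. Mxd1, which competes with Myc for Max, fell most, from 11.9 ± 0.993 to 7.58 ± 1.18 FPKM (log2 fold change -0.60, adjusted p = 0.00302), and Max, Mxd4 and Mlx were the others that fell. Of 20 growth genes known as Myc targets, for ribosome assembly, polyamine synthesis and chaperones, 16 were lower and 0 were higher, against 14.1% of all genes that were lower. Srm, the spermidine synthase gene, had the lowest change, with 89.2, 81.9, 89.2 and 79.7 FPKM in Med23+/+ and 46.3, 42.2, 38.1 and 42.1 FPKM in Med23-/- replicates 1 to 4 (log2 fold change -0.995, adjusted p = 4.3e-05). Odc1, for the step before it, was at 39.8 ± 1.90 and 34.8 ± 4.72 FPKM (log2 fold change -0.20, adjusted p = 0.157), and passed without Med23-/- replicate 4, at -0.28. Without single libraries the number that were lower ran from 13 to 17.

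Of 25 genes of DNA synthesis known as E2F targets, 21 were higher in Med23-/- iOLs and 0 were lower, against 15.9% of all genes that were higher. Those above a fold change of 2 on the FPKM + 1 scale were Mcm5, Gins2, Rrm2, Tk1, Ccna2 and Uhrf1, with log2 fold changes of 1.12, 1.10, 1.10, 1.21, 1.10 and 1.39. By the ratio of mean FPKM, Mcm2, Mcm3, Cdc6, Pola1 and Pole were above 2 as well, at 2.06, 2.02, 2.005, 2.08 and 2.11. Orc1 had the lowest change, 0.20 at 1.08 ± 0.107 and 1.39 ± 0.218 FPKM (adjusted p = 0.249). Of 20 genes of G2 and mitosis, 19 were higher, from 0.69 for Aurka to 1.11 for Top2a, with Mki67, Aurkb, Cenpf and Kif11 also above a fold change of 2 on the FPKM + 1 scale. The ratio of mean FPKM was above 2 for Ccnb2, Kif20a, Kif2c, Foxm1 and Mybl2 as well, at 2.04, 2.03, 2.05, 2.03 and 2.06. The calls of Mki67 and Aurka were lost without Med23+/+ replicate 3, and that of Aurka also without Med23+/+ replicate 1 or Med23-/- replicate 1, 3 or 4, with array weights and when all genes above 0 in at least 1 library were tested. The count of 19 fell to 9 without Med23+/+ replicate 3 and to 12 when all genes above 0 in at least 1 library were tested, while that of the S phase list stayed between 19 and 23.

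The mean log2(FPKM + 1) of the S phase list was 3.64, 3.84, 3.03 and 3.51 in Med23+/+ and 4.38, 4.10, 4.17 and 4.74 in Med23-/- replicates 1 to 4, and the genotypes did not overlap. Med23+/+ replicate 3 was lowest and Med23-/- replicate 4 was highest, as for Ccnd1, Ccnd2, Ccne1, Ccne2 and Cdk6. The mean of the mitosis list, 3.39 to 4.28 and 4.46 to 5.44, had the same libraries at its ends. The mean of the Myc growth targets was 5.77 to 5.87 in Med23+/+ and 5.26 to 5.44 in Med23-/- libraries, with Med23+/+ replicate 3 within the range of its genotype and Med23-/- replicate 4 again highest of its own.

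**Figure D4:**
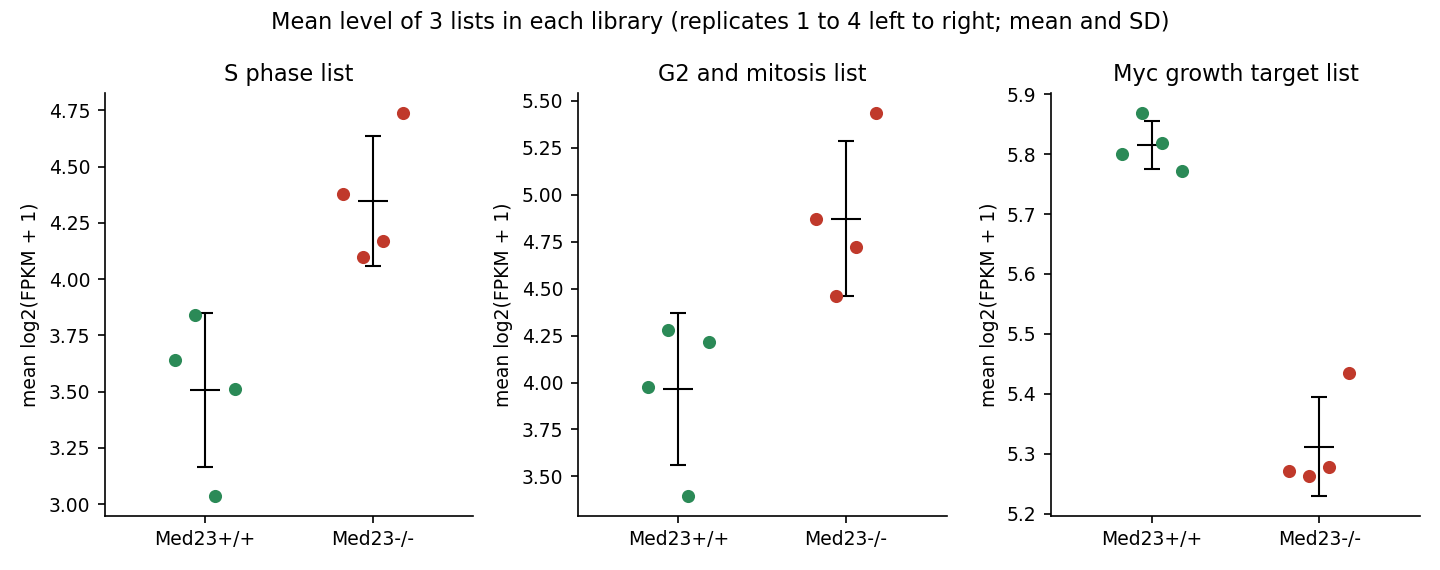
Mean log2(FPKM + 1) of the genes of 3 lists in each library, with Med23+/+ in green, Med23-/- in red, replicates 1 to 4 from left to right, and the mean and SD of each genotype; the vertical axes do not start at 0. The genotypes differed by 0.84 for the S phase list, 0.91 for the G2 and mitosis list and -0.50 for the Myc growth targets.

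Of the 10 genes, 7 were set against the S phase list in the same library, all but Cdk4, Rb1 and Myc. The level of Ccne1 minus the list mean, in log2(FPKM + 1), was -0.29, -0.61, -0.53 and -0.53 in Med23+/+ and -1.38, -1.31, -1.36 and -1.37 in Med23-/- replicates 1 to 4. Ccne1 thus lay further below the S phase genes in every Med23-/- library, by 0.87 in the mean. The list mean itself was higher by 0.84, while Ccne1 had a log2 fold change of -0.03 with overlapping levels. Cdk4 and Myc, not set against the list, had log2 fold changes of -0.35 and -0.94. They therefore also fell relative to the list mean, so such a shift is not particular to Ccne1. Ccnd1 lay 1.88 to 2.37 above the list mean in Med23+/+ and 2.53 to 2.92 above it in Med23-/- libraries, also without overlap and with a mean change of 0.62. For Ccnd2, Ccnd3, Ccne2, Cdk2 and Cdk6 the difference from the list mean overlapped between the genotypes, and its mean changed by between -0.62 for Ccnd3 and 0.24 for Cdk6. These differences carry no test.

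Of 17 genes for the receptors and pathways that raise the D cyclins, 4 (23.5%) were higher and 2 (11.8%) were lower. With 15.9% and 14.1% of all genes tested, the list lay near the background by the adjusted p alone. With a fold change above 2 in addition, 3 of the 17 were higher and 1 was lower, against 2.98% and 1.75% of all genes, which is above the background. Pdgfra, the PDGF receptor that marks OPCs, had 108, 129, 105 and 141 FPKM in Med23+/+ and 325, 335, 329.6 and 347 FPKM in Med23-/- replicates 1 to 4 (log2 fold change 1.47 ± 0.10, adjusted p = 2.33e-05). Egfr, the EGF receptor, went from 2.12 ± 1.16 to 8.44 ± 2.14 FPKM (log2 fold change 1.65, adjusted p = 0.00169), and Fgfr1, an FGF receptor, from 11.4 ± 1.63 to 25.3 ± 2.29 FPKM (log2 fold change 1.09, adjusted p = 0.000126). Tcf7l2, a factor of the Wnt pathway that also serves oligodendrocyte differentiation, fell from 59.8 ± 2.16 to 22.9 ± 3.92 FPKM (log2 fold change -1.36, adjusted p = 4.16e-05). Igf1r, the IGF receptor gene, was also higher (log2 fold change 0.60, adjusted p = 0.000496), and Map2k2, which encodes the ERK-activating kinase MEK2, was lower (log2 fold change -0.33, adjusted p = 0.0148). The 11 genes of this list that did not pass include those for the Ras proteins, Braf, the ERK kinases, beta-catenin and Akt1.

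Among the 9433 genes whose mean reached 5 FPKM, those whose log2(FPKM + 1) followed Ccnd1 most closely over the 8 libraries were Nes, Adam12 and Kcnip3, with a Pearson r of 0.998, 0.995 and 0.994. For Ccnd2 they were Pold3, Igfbp2 and Syce2, with 0.986, 0.984 and 0.979, and for Myc they were Wasf1, Mob3a and Uck2, with 0.998, 0.994 and 0.993. The 8 points of each pair fall in the 2 genotypes and share their libraries, so these values describe likeness and carry no test.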

How the data were processed

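RNA-seq was performed on 4 Med23+/+ and 4 Med23-/- iOL libraries, made by the authors from total RNA. The authors used Cutadapt for trimming and TopHat2 for alignment to mm10, and deposited FPKM values from cuffdiff (options -b and -u). Tool versions and the annotation used are not given in the sources used here. The deposited fold changes, p-values, q-values and pooled means were not used, and 0 other columns of single libraries were left out.

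Values were analysed as log2(FPKM + 1) without further scaling. Genes whose mean reached 1 FPKM were tested with limma 3.58.1 (R 4.3.3, lmFit and eBayes with a trend), which was tested on simulated data, and p-values were adjusted over all 12328. Fold changes of means are on the FPKM scale, while the cut of a fold change above 2 is on the log2 scale of the fit. Single ratios had an exact permutation test. All 10 genes were named, with Med23, the genes of each list at the ends of its range or past a fold change of 2, and the 3 genes most like Ccnd1, Ccnd2 and Myc. Genes, lists and tests were chosen with earlier results of these data known. One of the lineage markers listed at the start is not reported here. Other genes are named as members that passed or as overlapping neighbours. Coordinates come from GENCODE vM21, promoters from RefSeq on GRCm38.p6. The alternatives were another pseudocount, 2 other filters, quantile and median-ratio scaling, no trend, array weights, the replicate block, replicates 1 and 2 against 3 and 4 as a covariate, leaving out each library and, added after seeing the data, sex as a covariate.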

Additional observations from a re-analysis of the deposited data

Results flagged for a closer look

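The groups of 4 libraries of the genes named and of the 3 ratios, 108 in all, were searched for a library far from the others. There were 3, where chance flags about 1 in 20 groups. Myc was at 43.2 FPKM in Med23-/- replicate 3, against 58.9 to 62.1 FPKM in the other Med23-/- libraries. The log2 ratio of Cdk4 to Cdk6 was 4.71 in Med23-/- replicate 4, against 5.27 to 5.34 in the other Med23-/- libraries. Uck2, a gene that followed Myc, was at 73.5 FPKM in Med23+/+ replicate 2, against 80.5 to 81.1 FPKM in the other Med23+/+ libraries.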

How the results depend on the processing

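The 7 genes called among the 10 passed in every setting and leave-one-out fit in which they were tested, with 5 higher and 2 lower throughout except at a mean of at least 5 FPKM, where Cdk6 was not tested and 4 were higher. The number above a fold change of 2 was 1 with array weights, where Ccnd2 and Cdk6 were at 0.97 and 0.99. It was 2 with quantile normalization, where Cdk6 was at 0.94, and 2 at a mean of at least 5 FPKM. When single libraries were left out it was 1 to 3. The log2 fold change of Ccne1 ran from -0.20 to 0.09 over the libraries left out, and was above 0 without Med23+/+ replicate 1 (0.086), Med23+/+ replicate 2 (0.044), Med23-/- replicate 2 (0.040) or Med23-/- replicate 3 (0.037). Of the named genes outside the 10, 41 fits lost a call and 2 gained one. Over all genes, 1281 were higher at a mean of at least 5 FPKM, and 654 were higher above a fold change of 2 with a pseudocount of 0.1. The deviations of same-numbered libraries of the genotypes had correlations of 0.13, -0.10, -0.03 and 0.16. Those of differently numbered libraries ran from -0.18 to 0.16, a like range, and the numbers were not used as pairs. Whether same-numbered samples were prepared together is not given in the sources used here, and such correlations cannot settle it. With the replicate number as a block, 5 of the 10 genes were still higher and 2 lower, and 2085 and 1835 of all genes. With the replicate block the ratios had an exact sign-flip permutation test over 4 pairs, whose smallest p is 0.125. In 1 library of each genotype Xist was high, and sex as a covariate changed no call of the 10 genes. The depth of the libraries is unknown, so no counting error can be given for low genes such as Cdk6 and Ccne2.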
